A study of Drosophila melanogaster with 6 samples.

Results

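DNA replication and mitosis genes were followed in whole female larvae after RNAi against *Dctn1*, which encodes the p150 subunit of dynactin, the complex that links cytoplasmic dynein to its cargo. The group held 44 genes of the 13858 in the deposited expression table, chosen by gene symbol for textbook roles. These roles were replication licensing, S phase control, the mitotic cyclins and kinases, the spindle checkpoint, the kinetochore and cytokinesis. The rule did not use their levels, but the list was drawn up with earlier results of these data known. All 44 were found in the table. Knockdown larvae carried a UAS-*Dctn1* RNAi transgene (Vienna Drosophila Resource Centre stock 3785) driven by *Act5C*-GAL4, a driver that is active in the whole body, and control larvae carried the driver only. Both groups were females of the third larval instar, 96 h old (counted from hatching in the sample labels and from egg laying in the study's methods), feeding on grape agar with yeast. The wild-type stock named in the labels is *w1118* and flies were cultured at 25 °C. Each group had 3 libraries (control replicates 2, 3 and 4, and knockdown replicates 1, 2 and 3), and each library was a pool of 12 to 15 larvae, so that a value is an average over animals and over all tissues. The transgene is a single RNAi line, and the larvae survived on a partial knockdown until the pupal stage.

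A dividing cell first loads the MCM helicase onto origins marked by the origin recognition complex (ORC), then fires these origins in S phase, and then enters mitosis when cyclin-dependent kinase 1 (Cdk1) is switched on. In *Drosophila* larvae these steps are split between tissues. Most larval tissues, such as salivary gland, fat body and gut, grow by endocycles, which are rounds of S phase without mitosis, while imaginal discs, neuroblasts, imaginal cells of the gut and hemocytes divide. Genes of replication are thus used by both kinds of cell, whereas mitotic cyclins and kinetochore proteins mark the dividing cells. Dynein and dynactin also act at mitosis itself, where the Rod, Zw10 and Zwilch (RZZ) complex recruits them to the kinetochore.

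Levels were deposited as FPKM, in which the fragments counted for a gene are divided by its transcript length and by the mapped reads of the library, so that levels of different genes can be compared. A log2 fold change is the difference of log2(FPKM + 0.1) between knockdown and control, tested with limma over the 9978 genes with a mean of at least 0.5 FPKM. This scale understates the change of low genes. A gene was called changed at an adjusted p under 0.05, and a differentially expressed gene (DEG) also needed an absolute log2 fold change above 1. Values per library are listed throughout in the order of control replicates 2, 3 and 4 and of knockdown replicates 1, 2 and 3. *Dctn1* itself measured 15.3, 15.2 and 12.5 FPKM in controls against 7.33, 7.96 and 6.85 FPKM in knockdowns. Its groups did not overlap, and it fell to 51.6% of the control mean (log2 fold change −0.94, SE 0.13, adjusted p = 0.00737). By qRT-PCR on larvae of both sexes, the study reported a strong reduction of *Dctn1* in the same constitutive knockdown, larger than this FPKM value shows. Relative to the mean of the 6 libraries, the summed FPKM of a library lay between 94.2% and 107%. Depth is unknown, since FPKM values carry no totals and the low values gave no clear step of 1 read.

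All 44 genes passed the filter on low values, and 0 of them were called changed in the knockdown larvae. Over all tested genes, 5.06% were called higher and 1.65% lower, and 2.91% were DEGs, against 0 DEGs among the 44. The lowest adjusted p of the group was 0.123, for *stg*. Without control replicate 4, a library low for nearly all of these genes, the count was also 0. At an unadjusted p under 0.05, 4 genes were higher (*stg*, *E2f1*, *Orc4* and *CycD*) and 0 were lower, where 20.9% of all tested genes were higher and 4.35% lower by the same criterion. Without control replicate 4, 1 gene was higher (*E2f1*) and 1 lower (*Cdk1*) by this criterion. The control and knockdown libraries did not overlap for 7 genes, all higher in the knockdown (*Orc1*, *Orc4*, *E2f1*, *CycD*, *stg*, *feo* and *tum*), against 28.8% of all tested genes higher and 4.66% lower. The share of the 44 genes that separated upwards thus lay below that of all genes. A two-sided exact permutation test of any single gene cannot give less than p = 0.1 with 3 libraries against 3, and each of these 7 genes had exact p = 0.1.

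The interval of each difference says how large a change these libraries could have missed. The 95% interval of the log2 fold change lay within a 2-fold change in either direction for 42 of the 44 genes, and within a 1.5-fold change for 19. The 2 genes beyond a 2-fold change were *Cdk1*, whose interval ran from −1.05 to 0.28, and *Orc6*, with −0.14 to 1.07. The median half-width of the interval was 0.39 for the 44 genes and 0.38 for all tested genes. The fit draws the variance of each gene toward a trend over all genes, which by itself brings these widths closer together. Since the RNA came from whole larvae, fewer cells of a type and less RNA per cell cannot be told apart in any of these values.

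The median log2 fold change of the 44 genes was 0.19, with 35 above 0 and 9 below. Over all tested genes the median was 0.16 and 74.2% were above 0, so the group lay close to a shift shared by most genes of the table. After the libraries were scaled to a common median ratio, the median of all tested genes moved to −0.01 and that of the 44 genes to 0.01, with 23 genes above 0 and 21 below. Without control replicate 4, the medians were 0.002 for the 44 genes and 0.09 for all tested genes, again with 23 above 0 and 21 below. The sign of a small difference therefore depends on the scaling and on this library.

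**Figure D1:**
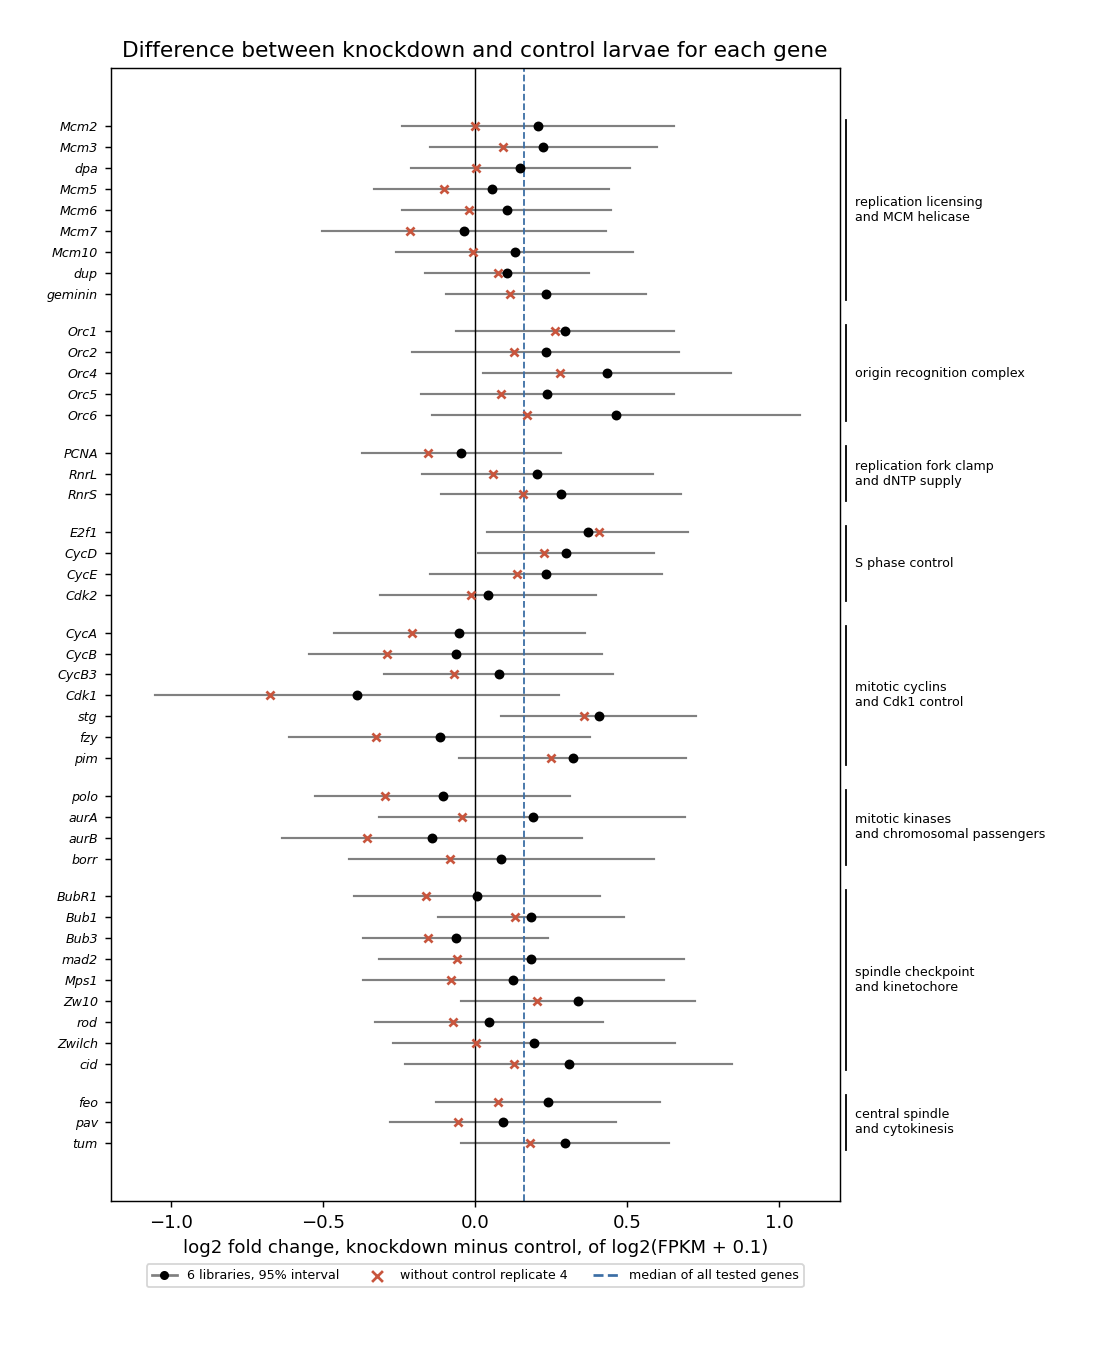
Log2 fold change of each of the 44 genes, knockdown minus control, on the log2(FPKM + 0.1) scale (black points, grey bars are 95% intervals), with the value without control replicate 4 (red crosses) and the median of all tested genes (dashed line, 0.16). The points run from −0.39 for *Cdk1* to 0.46 for *Orc6*, and for all genes except *E2f1* the cross lies to the left of the point.

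Control replicate 4 stood apart from the other libraries for these genes. It was the lowest of the 6 libraries for 40 of the 44 genes, against 49.97% of all tested genes, and the lowest control for 42, against 61.6%. The 2 exceptions among controls were *E2f1* and *Cdk2*. The median deviation of the 44 genes from their own means was −0.35 on the log2 scale in control replicate 4, and −0.22 for all tested genes. In control replicates 2 and 3 the deviation of the 44 genes was 0.04 and 0.11, and in knockdown replicates 1, 2 and 3 it was 0.19, 0.02 and −0.02. Knockdown replicate 1 was the highest knockdown for 32 genes. After scaling to a common median ratio, the median deviation of the 44 genes in control replicate 4 was −0.13, and this library was the lowest library for 18 of the 44 genes, against 17.1% of all genes.

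Between the controls alone, the highest library exceeded the lowest by a median factor of 1.40 over the 44 genes, and by more than 1.5 for 15 of them. This spread lay between libraries of a single condition. Marker genes of the dividing tissues followed the same library. The 6 neuroblast markers (*dpn*, *ase*, *wor*, *mira*, *insc* and *grh*) and the 12 disc markers (among them *vg*, *nub*, *Dll* and *wg*) were all lowest in control replicate 4 among the controls. Their summed level ranged from 27.4 to 33.3 FPKM in the controls and from 27.7 to 33.7 FPKM in the knockdowns for neuroblasts, and from 125.4 to 164.7 FPKM and from 137.6 to 165.8 FPKM for discs. Their median log2 fold changes were 0.01 and 0.13, and 0 markers of either list were called. Most of the neuroblast sum came from *grh*, and most of the disc sum from *hth* and *sd*. Single neuroblast markers went opposite ways. Every knockdown lay below every control for *wor* (69.3% of the control mean) and above every control for *dpn* (130.9%), while *ase*, *mira*, *insc* and *grh* overlapped. Single disc markers also differed, with knockdown means from 77.6% (*vg*) to 118.7% (*wg*) of the control mean. Of the disc markers, only *ey* (117.8%) had every knockdown above every control, and the others overlapped. Germline markers (*vas*, *nos*, *bam*, *aub*, *osk* and *zpg*) reached at most 0.35 FPKM, and *osk* was listed at 0 in all libraries, so the defining germline markers were at or near 0.

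**Figure D2:**
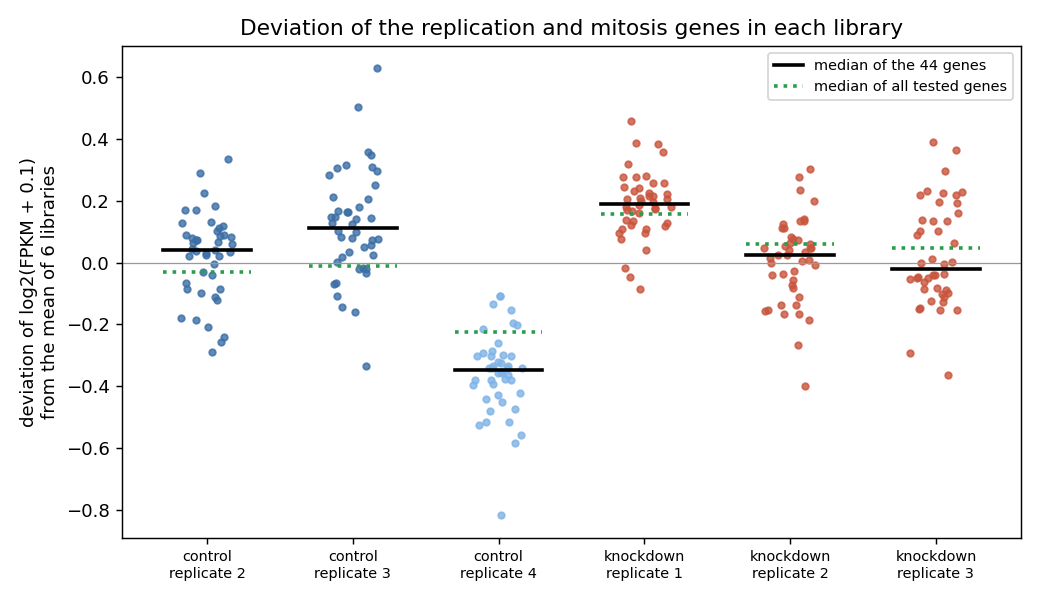
Deviation of each of the 44 genes from its own mean over the 6 libraries, on the log2(FPKM + 0.1) scale, by library (points), with the median of the 44 genes (black line) and of all tested genes (dotted line). Control replicate 4 lies lowest with a median of −0.35, and knockdown replicate 1 highest with 0.19.

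Markers of other tissues also differed between these libraries. Summed salivary glue and *fkh* transcripts measured 23760, 25420 and 8439 FPKM in control replicates 2, 3 and 4 and 8949, 2790 and 9248 FPKM in the knockdowns. The sum, of which *Sgs7* was the largest single part, thus put control replicate 4 within the range of the knockdowns. This library was the lowest control for all 7 genes, which are a secretory regulator (*fkh*) and glue genes active late in the larval stage. Single genes differed from the sum. Every control lay above every knockdown for *Sgs1*, *Sgs7* and *Sgs8*. For *Sgs7*, control replicate 4 held 4653 FPKM against at most 4097 FPKM in a knockdown. The knockdown mean of *Sgs4* was instead 139.7% of the control mean. Hemocyte markers (*Hml*, *NimC1*, *Ppn*, *Pxn* and *srp*) summed to 79.3 to 90.5 FPKM in the controls and 97.0 to 101.1 FPKM in the knockdowns, with 0 of 5 called. Neuronal markers (*elav*, *nSyb*, *brp* and *Syt1*) summed to 35.8 to 38.2 FPKM and 42.5 to 48.97 FPKM, and larval serum and fat body proteins to 20900 to 22130 FPKM and 21250 to 26080 FPKM, with only *Lsp1beta* of all these markers called, as higher. Single genes of these lists differed too. Knockdown means of the fat body genes ran from 27.9% (*Fbp1*) to 216.7% (*Lsp1alpha*) of the control mean. *elav* (105.5%), *Hml* (97.8%) and *srp* (100.9%) lay near it, and the other neuronal and hemocyte markers ran from 123.7% (*nSyb*) to 136.0% (*brp*). The summed levels of midgut progenitor and body wall muscle markers overlapped between the groups. For the muscle gene *Tm1*, however, every knockdown lay above every control. The part of any of these tissues in the levels of the replication and mitosis genes was not tested.

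The levels of the 44 genes spanned a wide range within every library. By control mean, 13 genes lay under 5 FPKM, 27 from 5 to 20 FPKM and 4 at 20 FPKM or more, with a median of 6.74 FPKM against 10.2 FPKM over all tested genes. The 4 most abundant were *E2f1* (39.1 FPKM), *Bub3* (35.2 FPKM), *PCNA* (30.2 FPKM) and *RnrS* (20.4 FPKM). The least abundant was *cid*, the centromeric histone H3 variant, at 1.04 FPKM. Of these neighbours in the order, *E2f1* and *Bub3* overlapped over the controls, as did *Bub3* and *PCNA*. The SDs of *E2f1*, *Bub3* and *PCNA* were 3.42, 3.95 and 3.99 FPKM. Every control value of *PCNA* lay above every control value of *RnrS*.

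**Figure D3:**
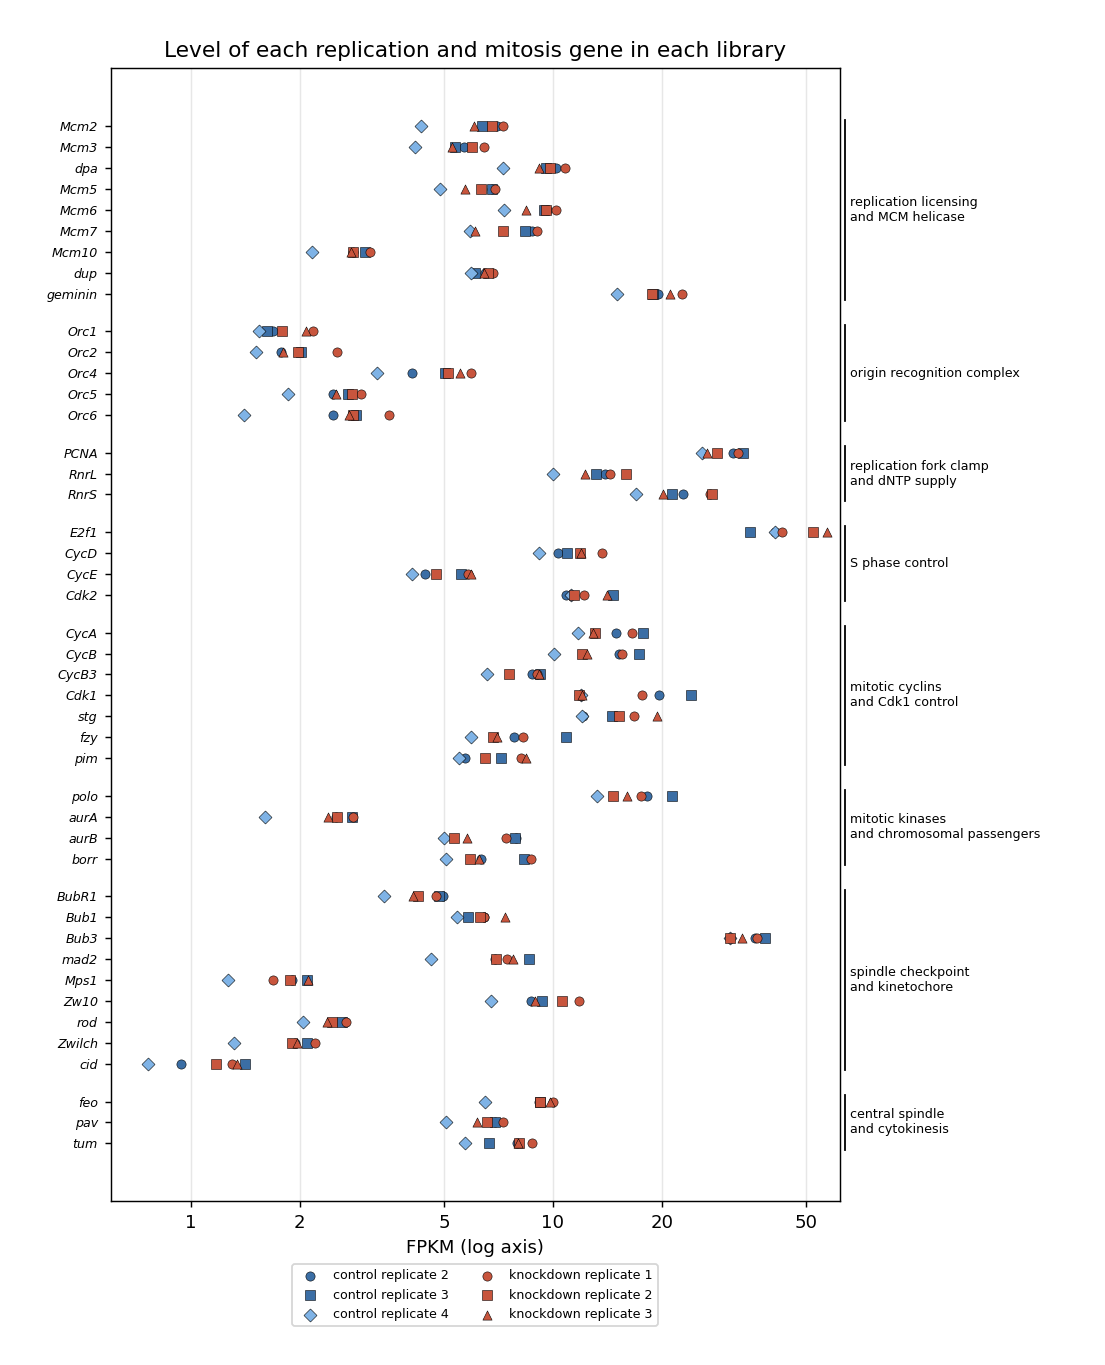
FPKM (log axis) of each of the 44 genes in each of the 6 libraries, grouped by role, with controls in blue and knockdowns in red. Control replicate 4 (light blue diamonds) is the lowest point for 40 genes, and the colours are mixed for all but 7 genes.

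The MCM genes encode the replicative helicase, a ring of 6 different subunits (*Mcm2*, *Mcm3*, *dpa* for Mcm4, *Mcm5*, *Mcm6* and *Mcm7*). Their levels were close to each other, as the most abundant of the 6 exceeded the least abundant by 1.77 to 1.80 times in the controls and by 1.64 to 1.74 times in the knockdowns. *Mcm2* measured 7.02, 6.38 and 4.32 FPKM in controls against 7.29, 6.79 and 6.06 FPKM in knockdowns. One control was below all knockdowns while the other 2 lay among them, and the log2 fold change was 0.21 (SE 0.19, adjusted p = 0.531). It was 0.00 without control replicate 4 and 0.03 after median-of-ratios scaling. The other 5 subunits had log2 fold changes from −0.04 for *Mcm7* to 0.22 for *Mcm3*, and none was called. *Mcm10*, which joins the helicase at origin firing, had 0.13.

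Licensing is controlled by *dup*, the fly Cdt1 that loads MCM rings, and by *geminin*, its inhibitor. *dup* was the steadiest gene of the group, with 6.5, 6.1 and 5.93 FPKM in controls against 6.85, 6.62 and 6.46 FPKM in knockdowns. Its highest and lowest library differed by a factor of 1.16, and the log2 fold change was 0.10 (SE 0.12, adjusted p = 0.605). After median-of-ratios scaling the sign of *dup* turned, to −0.07. *geminin* measured 19.5, 18.9 and 14.99 FPKM in controls against 22.7, 18.8 and 21.1 FPKM in knockdowns, with control replicate 4 below the 5 other libraries. The log2 fold change of *geminin* was 0.23 (SE 0.14, adjusted p = 0.343), so that neither the loader nor its inhibitor passed the test. All 9 genes of licensing and the helicase had their lowest value in control replicate 4.

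ORC genes encode the complex that binds origins and recruits the MCM ring. The group held 5 of them, and *Orc3*, another subunit, is counted with the other genes below. All 5 (*Orc1*, *Orc2*, *Orc4*, *Orc5* and *Orc6*) were on the positive side, also after median-of-ratios scaling and without control replicate 4, where their medians were 0.13 and 0.17 against 0.30 as deposited. None was called. *Orc4* measured 4.09, 5.02 and 3.26 FPKM in controls against 5.93, 5.13 and 5.53 FPKM in knockdowns. Its groups did not overlap, and the log2 fold change was 0.43 (SE 0.18, adjusted p = 0.175). *Orc6*, which had the largest difference of the 44 genes, measured 2.47, 2.86 and 1.4 FPKM in controls against 3.53, 2.8 and 2.74 FPKM in knockdowns. Here control replicate 4 alone held 1.40 FPKM, and the log2 fold change of 0.46 (SE 0.26, adjusted p = 0.308) became 0.17 without it. *Orc1*, singled out after its values were seen because its groups do not overlap, measured 1.69, 1.62 and 1.54 FPKM in controls against 2.17, 1.79 and 2.08 FPKM in knockdowns. Its controls were close together, and its log2 fold change was 0.30 (SE 0.16, adjusted p = 0.276), and 0.26 without control replicate 4. The ORC genes were low throughout, from 1.40 to 5.93 FPKM.

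*PCNA* encodes the sliding clamp of the replication fork and is the common marker of S phase. It measured 31.4, 33.5 and 25.8 FPKM in controls against 32.5, 28.4 and 26.7 FPKM in knockdowns. The groups overlapped almost entirely, the means were 30.2 ± 3.99 FPKM in the controls against 29.2 ± 3.001 FPKM in the knockdowns (SD, n = 3 each), and the log2 fold change was −0.05 (SE 0.14, adjusted p = 0.865), with a 95% interval from −0.37 to 0.28. *RnrL* and *RnrS* encode the large and the small subunit of ribonucleotide reductase, which supplies deoxynucleotides. Their log2 fold changes were 0.20 and 0.28, with adjusted p of 0.469 and 0.34. Both were highest in knockdown replicate 2 and lowest in control replicate 4.

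Entry into S phase is driven by *E2f1*, the activating E2F transcription factor, by *CycD*, the growth-coupled G1 cyclin, and by *CycE* with *Cdk2*, the kinase pair that starts replication. *E2f1* measured 41.01, 35.1 and 41.1 FPKM in controls against 42.95, 52.2 and 57.1 FPKM in knockdowns. Every knockdown lay above every control, and control replicate 4 was not low for this gene. The means were 39.1 ± 3.42 FPKM in the controls against 50.8 ± 7.19 FPKM in the knockdowns (SD, n = 3 each), and the log2 fold change was 0.37 (SE 0.14, adjusted p = 0.159). It was 0.41 without control replicate 4 and 0.19 after median-of-ratios scaling. *CycE*, an E2F target, measured 4.43, 5.58 and 4.08 FPKM in controls against 5.84, 4.77 and 5.93 FPKM in knockdowns. The *CycE* groups overlapped, with a log2 fold change of 0.23 (SE 0.17, adjusted p = 0.416). *CycD*, singled out after its values were seen because its groups do not overlap, measured 10.3, 10.96 and 9.16 FPKM in controls against 13.7, 11.9 and 11.96 FPKM in knockdowns. Its log2 fold change was 0.30 (SE 0.13, adjusted p = 0.185). *Cdk2* was at 12.3 ± 2.11 FPKM in the controls against 12.6 ± 1.38 FPKM in the knockdowns (SD, n = 3 each), which is a log2 fold change of 0.04.

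*PCNA*, *RnrL*, *RnrS*, *CycE* and the MCM genes are known targets of E2F in flies. Beside the log2 fold change of 0.37 for *E2f1*, these targets ran from −0.05 for *PCNA* to 0.28 for *RnrS*. *E2f1* was highest in knockdown replicate 3, at 57.1 FPKM, while *PCNA* and *RnrS* in that library were the lowest of the 3 knockdowns, at 26.7 and 20.1 FPKM. *CycE* was instead highest of the 6 libraries there, at 5.93 FPKM.

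Mitosis is started and ended through Cdk1 and its cyclins. *Cdk1*, the mitotic kinase, had the lowest log2 fold change of the 44 genes. It measured 19.6, 24.1 and 11.9 FPKM in controls against 17.7, 11.8 and 12.1 FPKM in knockdowns. Control replicates 2 and 3 and knockdown replicate 1 were high, and control replicate 4 and knockdown replicates 2 and 3 were low, so the groups overlapped. The means were 18.6 ± 6.15 FPKM in the controls against 13.8 ± 3.31 FPKM in the knockdowns (SD, n = 3 each), and the log2 fold change was −0.39 (SE 0.28, adjusted p = 0.428). Without control replicate 4 it was −0.68 with an unadjusted p of 0.0168 and an adjusted p of 0.133, and after median-of-ratios scaling it was −0.57 with an adjusted p of 0.235.

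The 2 main partners of Cdk1 showed the same order of libraries within the controls. *CycA*, the cyclin of S phase and early mitosis, measured 14.96, 17.8 and 11.7 FPKM in controls against 16.6, 13.03 and 12.9 FPKM in knockdowns. *CycB*, which drives entry into metaphase, measured 15.3, 17.3 and 10.1 FPKM in controls against 15.5, 12.1 and 12.4 FPKM in knockdowns. Both were highest in control replicate 3 and lowest in control replicate 4, with the knockdowns between them. Their log2 fold changes were −0.05 (SE 0.18, adjusted p = 0.88) and −0.06 (SE 0.21, adjusted p = 0.874). *CycB3*, the third mitotic cyclin, had 0.08.

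*stg*, the Cdc25 phosphatase that switches Cdk1 on and sets the time of mitosis, had 1 of the largest differences of the group. It measured 12.1, 14.6 and 12.0 FPKM in controls against 16.8, 15.2 and 19.4 FPKM in knockdowns. Every knockdown lay above every control, and the log2 fold change of 0.41 (SE 0.14, adjusted p = 0.123) had the lowest adjusted p of the 44 genes. Without control replicate 4 it was 0.36, and after median-of-ratios scaling 0.23. With weights estimated per library it was 0.45 with an adjusted p of 0.0283, the only alternative under which *stg* was called. These weights were 4.685, 0.538 and 0.341 for control replicates 2, 3 and 4, and 0.917 to 1.193 for the knockdowns. A weighted control level thus rests mostly on control replicate 2. The ratio of *stg* to *Cdk1* FPKM, chosen after both had been seen, was 0.617, 0.605 and 1.01 in the controls and 0.951, 1.29 and 1.61 in the knockdowns, and thus overlapped.

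*fzy* encodes the Cdc20 activator of the anaphase-promoting complex, and *pim* encodes securin, which the complex destroys to let chromatids part. *fzy* measured 7.81, 10.9 and 5.95 FPKM in controls against 8.25, 6.85 and 6.99 FPKM in knockdowns, with the whole knockdown range inside the control range. Its log2 fold change was −0.12 (SE 0.22, adjusted p = 0.769). *pim* lay on the positive side at 0.32, with an adjusted p of 0.257 and its highest value of 8.41 FPKM in knockdown replicate 3.

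The levels of the mitotic kinases overlapped between the groups. *polo*, the kinase of centrosome maturation and spindle assembly, measured 18.2, 21.3 and 13.3 FPKM in controls against 17.6, 14.6 and 16.1 FPKM in knockdowns. *aurB*, the kinase of the chromosomal passenger complex, measured 7.89, 7.85 and 5.0 FPKM in controls against 7.44, 5.34 and 5.78 FPKM in knockdowns. In both genes the knockdowns lay within the range of the controls, and the log2 fold changes were −0.11 (SE 0.18, adjusted p = 0.746) and −0.14 (SE 0.21, adjusted p = 0.71). *aurA*, the centrosomal Aurora kinase, and *borr*, the passenger protein borealin, had 0.19 and 0.09.

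The spindle checkpoint holds anaphase until every kinetochore is attached, and dynein carries checkpoint proteins off attached kinetochores. *BubR1*, which inhibits Fzy, measured 4.96, 4.84 and 3.42 FPKM in controls against 4.77, 4.25 and 4.11 FPKM in knockdowns. The means of *BubR1* were 4.41 ± 0.857 FPKM in the controls against 4.38 ± 0.348 FPKM in the knockdowns (SD, n = 3 each), and the log2 fold change was 0.01 (SE 0.18, adjusted p = 0.985), with an interval from −0.40 to 0.41. *Bub1*, *Bub3*, *mad2* and *Mps1*, which build or signal the checkpoint, had log2 fold changes of 0.19, −0.06, 0.19 and 0.13, and none was called.

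The 3 RZZ genes are those with the closest known tie to dynactin. *Zw10* measured 8.68, 9.34 and 6.76 FPKM in controls against 11.8, 10.6 and 8.91 FPKM in knockdowns. Only knockdown replicate 3 lay within the control range, and the log2 fold change was 0.34 (SE 0.17, adjusted p = 0.248). Zw10 also serves in Golgi traffic outside mitosis. *rod* measured 2.67, 2.61 and 2.04 FPKM in controls against 2.69, 2.46 and 2.37 FPKM in knockdowns, and its log2 fold change was 0.05 (SE 0.16, adjusted p = 0.887). *Zwilch* had 0.20, with control replicate 4 as the lowest library for all 3. *cid*, which marks the centromere on which the kinetochore is built, measured 0.94, 1.41 and 0.76 FPKM in controls against 1.3, 1.17 and 1.34 FPKM in knockdowns. Its knockdowns lay between control replicate 3 and the other 2 controls, and the log2 fold change was 0.31 (SE 0.23, adjusted p = 0.443).

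Cytokinesis was represented by *pav* and *tum*, which together form centralspindlin, and by *feo*, which bundles midzone microtubules. *feo* measured 9.15, 9.21 and 6.48 FPKM in controls against 9.99, 9.24 and 9.79 FPKM in knockdowns. *tum* measured 7.94, 6.66 and 5.72 FPKM in controls against 8.76, 8.05 and 8.01 FPKM in knockdowns. Both were singled out after their values were seen, because their groups do not overlap, in both cases by a narrow margin. Their log2 fold changes were 0.24 (SE 0.16, adjusted p = 0.385) and 0.30 (SE 0.15, adjusted p = 0.254). *pav* had 0.09.

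By role, the median log2 fold change was highest for the 5 ORC genes (0.30) and the 4 genes of S phase control (0.27) and lowest for the 7 mitotic cyclins and Cdk1 regulators (−0.05) and the 4 mitotic kinases and passengers (−0.01). Licensing and the helicase had 0.13, the fork clamp and nucleotide supply 0.20, the checkpoint and kinetochore 0.19 and the central spindle 0.24. After median-of-ratios scaling the first 2 groups had 0.13 and 0.09 and the latter 2 had −0.23 and −0.19, and without control replicate 4 the values were 0.17 and 0.18 against −0.21 and −0.19. The same groups were thus at the top and at the bottom under each of these settings. After quantile normalization the ORC genes and the central spindle both had 0.07, beside 0.08 for S phase control. The 2 lowest groups had −0.20 and −0.18 there. The median of licensing and the helicase was −0.04 after scaling, and that of the checkpoint and kinetochore was −0.06 without control replicate 4.

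A ratio between groups of genes is free of the scaling of a library. The geometric mean of the 5 ORC genes over that of the 7 mitotic cyclins and Cdk1 regulators was 0.213, 0.197 and 0.210 in the controls and 0.258, 0.272 and 0.245 in the knockdowns. Every knockdown lay above every control, control replicate 4 included. This ratio was chosen after the medians by role had been seen, so it is given as a description, with no test.

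**Figure D4:**
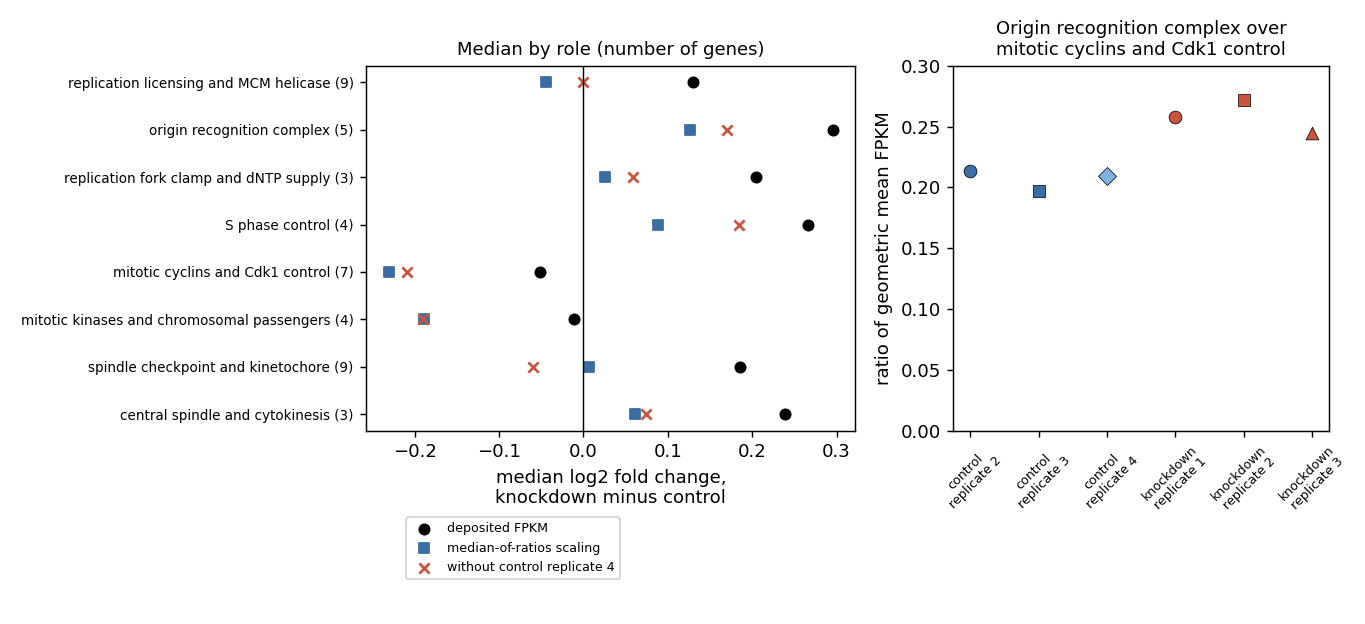
Left, median log2 fold change (knockdown minus control) of the genes of each role, as deposited, after median-of-ratios scaling and without control replicate 4, with the number of genes in brackets. Right, geometric mean FPKM of the 5 ORC genes divided by that of the 7 mitotic cyclins and Cdk1 regulators in each library, from 0.197 to 0.213 in the controls and from 0.245 to 0.272 in the knockdowns.

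Other genes of the same processes were listed from textbook roles, 128 in all, of which 127 passed the filter. None of them was called, with a lowest adjusted p of 0.0654 for *dnk*, the deoxynucleoside kinase of nucleotide salvage. At an unadjusted p under 0.05, 17 were higher and 2 lower, which is again a lower share than over all tested genes on the higher side. The groups did not overlap for 35 higher genes and 1 lower gene, against 28.8% and 4.66% of all tested genes. Of the 127 genes, 112 lay above 0, against 74.2% of all tested genes, and 63 did so after median-of-ratios scaling. Their median log2 fold change was 0.17, and it was −0.01 after median-of-ratios scaling and 0.06 without control replicate 4. Control replicate 4 was the lowest of the 6 libraries for 109 of them. The 2 lower genes were *Cdc7* and *Klp67A*, a kinesin of the mitotic spindle, which had the largest difference of the 127. *Klp67A* measured 14.4, 13.6 and 8.04 FPKM in controls against 9.33, 4.03 and 4.78 FPKM in knockdowns. Its groups overlapped, and its log2 fold change was −1.03 (SE 0.37, adjusted p = 0.149). With weights estimated per library it was called lower (−1.28, adjusted p = 0.0395), and likewise without knockdown replicate 1 (−1.39, adjusted p = 0.0388).

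Among these other genes, the 10 of origin licensing and firing stood highest by median. They were the GINS complex, *CDC45L*, *Orc3*, *Cdc6*, *Cdc7*, *chif* and *mus101*. Their median was 0.43 as deposited, 0.25 after median-of-ratios scaling and 0.28 without control replicate 4. Within them, 5 were higher and 1 lower at an unadjusted p under 0.05, against 20.9% and 4.35% of all tested genes. This list was singled out because its median was the highest, so these counts are only a description. *Cdc6*, which loads MCM rings together with Dup, measured 2.37, 2.37 and 1.79 FPKM in controls against 3.33, 3.48 and 3.06 FPKM in knockdowns. Its log2 fold change was 0.58 (SE 0.17, adjusted p = 0.0774). *Psf3*, a GINS subunit of the moving helicase, measured 8.01, 9.81 and 11.1 FPKM in controls against 13.3, 13.6 and 14.3 FPKM in knockdowns. Its log2 fold change was 0.52 (SE 0.14, adjusted p = 0.07), and control replicate 4 was its highest control. With weights estimated per library, both *Cdc6* and *Psf3* were called higher (adjusted p = 0.0297 and 0.0061). Most of the control weight lay on control replicate 2, the lowest control for *Psf3*. After median-of-ratios scaling neither was called (adjusted p = 0.128 for *Cdc6* and 0.33 for *Psf3*). *Cdc7*, the kinase that fires licensed origins, went the other way, with 21.9, 26.5 and 25.8 FPKM in controls against 15.7, 15.9 and 20.7 FPKM in knockdowns. Its groups did not overlap, and its log2 fold change was −0.51 (SE 0.15, adjusted p = 0.085). *Klp67A* and these 3 genes were named after their values were seen.

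The 44 genes lie on all major chromosome arms, with 10 on 2L, 12 on 2R, 5 on 3L, 12 on 3R and 5 on X in the BDGP6.54 annotation. Of these genes, 18 share exonic bases with a gene on the opposite strand, and whether the counting used strand is not given in the sources used here. For *Mcm7* the antisense RNA *asRNA:CR45871* covers 81.7% of the exonic bases and for *Cdk2* the gene *CG17267* covers 43.9%, so reads of these pairs cannot be told apart without strand. The other 16 share at most 15.9%. Several of the genes stand head to head with another gene of the same process. *Mcm2* starts 518 bases from *RpA-70*, the large subunit of the single-strand binding protein, *Bub3* starts 229 bases from the condensin gene *Cap-D2*, and *Zw10* starts 144 bases from the spindle kinesin gene *Klp3A*. In these pairs the log2 fold changes were 0.21 and 0.38, −0.06 and 0.09, and 0.34 and 0.23.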

How the data were processed

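Per the study's methods, the authors enriched poly(A) RNA from whole larvae, sequenced paired-end reads of 100 bp, and used SOAPnuke to filter, HISAT2 to map and RSEM to quantify them. The deposited table holds FPKM values of 13858 genes. The submitters' processing notes also name StringTie, Cufflinks, GATK and DESeq2. The genome build and tool versions are not given in the sources used here. The study names the BGI DNBseq platform and the labels an Illumina instrument.

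Log2(FPKM + 0.1) of genes with a mean of at least 0.5 FPKM entered limma (version 3.58.1, R version 4.3.3) with condition as the only term and a trended, robust variance, and Benjamini-Hochberg adjustment ran over 9978 genes. The code was tested on simulated data. Exact permutation tests were two-sided. P-values measure the spread between pools of larvae.

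The members, the lists of other genes and the markers were chosen with earlier results of these data known. Values per library were given for the 3 largest and 3 smallest log2 fold changes and for role representatives, and otherwise named as chosen afterwards. The list of other genes was matched by symbol, some symbols after the table had been seen. Alternatives were pseudocounts of 1 and 0.01, no filter or a mean of at least 5 FPKM, a plain variance without trend and robustness, quantile normalization, scaling by median ratios, weights per library, a block by replicate number and leaving out each library in turn. Sequences and promoter motifs were not analysed here.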

Additional observations from a re-analysis of the deposited data

How the results depend on the processing

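Results were recomputed under 15 alternatives. The filter at a mean of 5 FPKM left out 12 of the 44 genes, the ORC genes, *BubR1*, *rod* and *cid* among them, and the other 32 had a value under each alternative. No alternative called a DEG among those of the 44 genes that it tested. Of the other genes, *Klp67A* met the DEG definition with weights, with the replicate block and without knockdown replicate 1. Estimated sample weights called 1 member higher (*stg*, log2 fold change 0.45, adjusted p = 0.0283, which ranged from 0.0283 to 0.381 over the alternatives), and among the other genes 5 higher (*Psf3*, *Cdc6*, *CDC45L*, *pbl* and *Mis12*) and 1 lower (*Klp67A*). Leaving out 1 library gave 0 to 1 lower calls among the other genes, the 1 being *Klp67A* (−1.39) without knockdown replicate 1. The median log2 fold change of the 44 genes was −0.024 after quantile normalization. Signs turned for *dup* (−0.074 median-of-ratios, −0.097 quantile), *BubR1* (−0.17, −0.22 and −0.14 with weights), *rod* (−0.128, −0.174 and −0.061) and *Mcm2* (−0.005 with weights). With each library left out, the log2 fold change of *PCNA* ranged from −0.156 to 0.031, of *CycA* from −0.209 to 0.088, of *CycB* from −0.291 to 0.093, of *polo* from −0.296 to 0.044, of *fzy* from −0.325 to 0.105, of *BubR1* from −0.162 to 0.10 and of *rod* from −0.074 to 0.112. The cause was not tested. *Dctn1* was called lower under every alternative (adjusted p from 0.000745 to 0.0394). Since depth is unknown, no counting error could be given for low genes such as *cid* and the ORC genes.

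The groups share only the replicate numbers 2 and 3, and no label says that a number marks a shared batch. The deviations of same-numbered libraries correlated at 0.40 and 0.14, and those of other pairs from −0.62 to 0.63. With the replicate block, 1 member was called lower (*Cdk1*, −0.86, adjusted p = 0.0396) and 1 other gene lower (*Klp67A*), the median of the 44 genes was −0.031, and *Mcm2*, *BubR1* and *rod* had −0.06, −0.22 and −0.12.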
